A study of Mus musculus with 7 samples.

Results

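The respiratory chain subunit genes were taken as the protein-coding genes whose GENCODE symbols start with *mt-Nd*, *mt-Co*, *mt-Cytb*, *mt-Atp*, *Nduf* followed by a subunit letter and number, *Sdh*, *Uqcr*, *Cox4* to *Cox8*, or *Atp5*. This rule used names only and found 102 genes among the 52230 genes in the files, of which 13 are encoded by mitochondrial DNA and 89 by nuclear chromosomes. Stromal tissue, the ovary left after granulosa cells were removed by repeated puncturing, was sequenced in 4 WT (PGR +/+) and 3 KO (PGR -/-) libraries of the PRKO line (Pgrtm1Bwo). Females aged 21–27 days, given as 21–25 days in the series design, received 5 IU eCG and 44 h later 5 IU hCG, and ovaries were collected at 8 h post-hCG. Each library was made from tissue pooled from 3 mice, and both genotypes had the same hormone treatment. The knockout is present in all cells of the mouse, and the tissue mixes stromal, theca, endothelial and immune cells, so that in these bulk samples fewer cells of a type and less RNA per cell cannot be told apart.

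The respiratory chain passes electrons from NADH (complex I, *Nduf* and *mt-Nd* genes) and succinate (complex II, *Sdh* genes) through complex III (*Uqcr* genes and *mt-Cytb*) to oxygen at complex IV (*Cox* and *mt-Co* genes), and the ATP synthase (complex V, *Atp5* and *mt-Atp* genes) uses the resulting proton gradient. Complex II is made from nuclear genes alone, while the other complexes join subunits from both genomes. In steroid-producing cells of the ovary, mitochondria also hold the first enzyme of steroid synthesis. Mitochondrial genes are transcribed as long precursors from both DNA strands and then cut into shorter messages, whereas each nuclear subunit gene has its own promoter.

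No subunit gene was a DEG between KO and WT, where 2 of all 19233 genes tested (0.0104%) were. Mitochondrial-encoded genes took 4.26% to 7.06% of all reads in a library and nuclear-encoded genes 0.833% to 0.916%. One WT library, replicate 1, had the highest value of all 13 mitochondrial-encoded genes, and the lower KO mean of their summed read share rested on it. Without that library the read share was 0.0182 percentage points higher in KO, and 8 of the 13 log2 fold changes were negative, with a median of -0.06. The KO minus WT difference in their summed TPM (reads per length, scaled to a fixed library total) was then -4369, smaller than the SD of 9503 among the other 3 WT libraries. Nuclear-encoded genes differed little among libraries, with a median coefficient of variation of 6.3% over the 83 that were tested. It was 21.5% for the mitochondrial-encoded genes and 11.2% for all 19233 genes tested. The tested nuclear-encoded genes also stood at higher levels than most, with a median of 207.3 TPM in WT beside 8.73 TPM for all genes tested.

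The 12 mitochondrial-encoded genes of one strand lie close together on the mitochondrial genome (GRCm39, chrM), and *mt-Nd6*, at chrM:13552-14070, is the only one on the other strand. Where 2 genes overlap, the shared part is shorter than the 100 bp of a read. How reads that cover the shared bases were assigned was not tested. *mt-Atp8* (chrM:7766-7969) and *mt-Atp6* (chrM:7927-8607), which encode ATP synthase subunits, share 43 bases, shown here in capitals within chrM:7915-7981. *mt-Nd4l* (chrM:9877-10173) and *mt-Nd4* (chrM:10167-11544), which encode membrane subunits of complex I, share 7 bases, in capitals within chrM:10155-10185.
mt-Atp8 into mt-Atp6: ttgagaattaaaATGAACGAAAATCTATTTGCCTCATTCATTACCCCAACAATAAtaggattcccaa
mt-Nd4l into mt-Nd4: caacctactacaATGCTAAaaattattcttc

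A block of chromosome 1 holds near-identical copies of 5 of these genes, on the minus strand between 24651856 and 24655278 (GRCm39). The copies of *mt-Atp6* (Atp6-ps, 678 bases), *mt-Co2* (Gm28661, 681 bases) and *mt-Co3* (Gm28437, 783 bases) had no mismatch with the mitochondrial gene. The copy of *mt-Nd3*, Gm28438, differed at 1 of 345 bases, T3C, counted from the first base of the gene. The copy of the last part of *mt-Co1*, Gm29216, differed at 6 of 492 bases, T1056A, C1057T, A1059G, A1060G, C1062A and A1066T. The stretches with these differences are printed because the rest of the aligned part carries no base that separates gene from copy, and capitals mark the differing bases (chrM:9459-9481 and chrM:6381-6413 on the plus strand, chr1:24652178-24652200 and chr1:24655246-24655278 on the minus strand).
mt-Nd3: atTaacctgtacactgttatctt
Gm28438: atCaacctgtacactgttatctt
mt-Co1: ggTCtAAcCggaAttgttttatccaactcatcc
Gm29216: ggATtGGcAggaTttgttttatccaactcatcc

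The share of reads in mitochondrial-encoded genes was 7.06%, 5.19%, 4.69% and 4.4% in WT replicates 1 to 4, and 5.43%, 4.64% and 4.26% in KO replicates 2 to 4. The groups overlapped, with a WT mean of 5.33% ± 1.19 (SD, n = 4) and a KO mean of 4.78% ± 0.598 (SD, n = 3). Without WT replicate 1, the WT mean was 4.76% ± 0.4 (SD, n = 3) and KO was 0.0182 percentage points higher than WT. The nuclear-encoded genes took 0.858%, 0.837%, 0.889% and 0.916% in WT, and 0.858%, 0.892% and 0.833% in KO. Their WT mean was 0.875% ± 0.0349 (SD, n = 4) and their KO mean 0.861% ± 0.0295 (SD, n = 3), a difference smaller than the spread within either group.

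**Figure D1:**
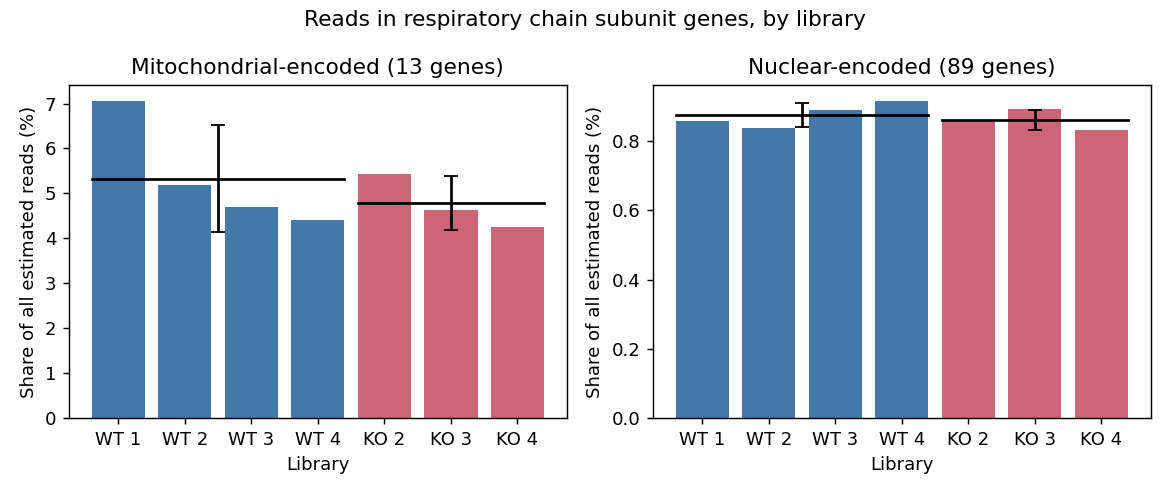
Share of all estimated reads (%) in the 13 mitochondrial-encoded (left) and 89 nuclear-encoded (right) subunit genes in each library, with WT in blue and KO in red. Horizontal lines are group means and error bars are SD. WT 1 stands highest on the left at 7.06% and stands within the other libraries on the right at 0.858%.

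The order of the libraries was not the same for both genomes. WT replicate 1 ranked 1 of 7 for mitochondrial-encoded and 4 of 7 for nuclear-encoded genes, while WT replicate 4 ranked 6 for the former and 1 for the latter. The ratio of mitochondrial-encoded to nuclear-encoded reads was 8.22, 6.21, 5.28 and 4.8 in WT, and 6.33, 5.21 and 5.11 in KO. Of the 83 tested nuclear-encoded genes, 46 had their highest value in WT replicate 4 and 53 had their lowest in KO replicate 4. KO replicate 4 was also the lowest library for 7 of the 13 mitochondrial-encoded genes.

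Marker lists of other cell types also differed among these libraries. WT replicate 1 had the highest summed level of the 7 fibroblast markers, 11482 CPM, beside 7569 to 9706 CPM in the other libraries. CPM are reads scaled to library size with TMM factors. This library was also highest for smooth muscle and pericyte (2923 CPM), endothelial (864.2 CPM) and adipocyte and skeletal muscle markers (40.2 CPM). Theca, granulosa cell, oocyte, leukocyte, red blood cell, and male germ and ciliated cell markers were highest in other libraries. Of the fibroblast markers, *Tcf21* alone (14.3%) was lower in KO at an unadjusted p under 0.05, without overlap, beside 5.1% of all genes. Its log2 fold change was -0.39. Theca cells are androgen-producing cells around the follicle, and their 7 markers include general genes of steroid synthesis (*Star*, *Cyp11a1* and *Hsd3b1*). They summed to 11400 to 13997 CPM in WT and 9494 to 10783 CPM in KO without overlap. The largest, *Cyp11a1*, alone was at 5311 to 7278 CPM in WT. Of the 7, *Star* and *Aldh1a1* (28.6%) had an unadjusted p under 0.05, both lower in KO, beside 5.1% of all genes. *Cyp17a1*, an androgen synthesis gene, and *Insl3* did not pass this level and overlapped between groups. The 11 smooth muscle and pericyte markers summed to 2286 to 2923 CPM in WT and 1780 to 2340 CPM in KO. Of the 11, 5 (45.5%) were lower in KO at this level, namely *Des*, *Cnn1*, *Acta2*, *Tagln* and *Cspg4*. Of the others, *Myh11* had a log2 fold change of -0.33. *Rgs5*, *Notch3*, *Kcnj8*, *Higd1b* and *Abcc9* ran from -0.09 to 0.12, so the list did not move as a whole. The 7 endothelial markers summed to 747.4 to 864.2 CPM in WT and 716.8 to 755.7 CPM in KO, and 2 of the 7 (28.6%) were lower. The 12 oocyte markers summed to 429.1 to 553.3 CPM in WT and 489.6 to 716 CPM in KO, and 6 of the 12 (50%) had an unadjusted p under 0.05, all higher in KO, beside 3.84% of all genes. The 11 granulosa cell markers summed to 2458 to 3832 CPM in WT and 3106 to 3856 CPM in KO, so the tissue still held granulosa cell RNA. The part of these cell types in the values of the subunit genes was not tested.

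*Pgr*, the targeted gene, was measured at 19.5, 31, 21.5 and 16.8 CPM in WT and at 6.13, 6.52 and 7.56 CPM in KO. It was lower in every KO library, with a log2 fold change of -1.72 ± 0.202 (SE). The adjusted p was 0.0544 in edgeR's quasi-likelihood test, which narrowly missed the threshold for a DEG, and 4.04e-15 in DESeq2. Total reads were 47.4 M to 63.4 M per library, and counting error is small at this depth for all but the lowest genes described.

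Among the 96 subunit genes tested, edgeR's quasi-likelihood test called 0 as DEGs (adjusted p no more than 0.05, with a log2 fold change of 0.5 or more in either direction), where it called 2 of all 19233 genes (0.0104%). DESeq2 and limma-voom also called 0 subunit genes, beside 0.439% of 32770 genes and 0.0104% of 19233 genes. At such shares, 0 among this number of subunit genes is near the background. At an unadjusted p under 0.05, 1 subunit gene was lower in KO and 0 were higher, beside 5.1% and 3.84% of all genes tested. The lowest adjusted p of a subunit gene was 0.471. One gene, *Ndufb8*, had every KO library below every WT library and 0 had every KO library above, beside 5.12% and 3.93% of all genes tested. With all 7 libraries these shares were no higher than the background. The count lower in KO ran from 0 (without WT replicate 1 or KO replicate 4) to 6 (without WT replicate 2) as single libraries were left out, and it was 5 without KO replicate 2 and 2 without WT replicate 4 or KO replicate 3. The 6 genes without WT replicate 2 were 6.25% of the subunit genes tested, beside 4.76% of all genes in that fit, and the 5 without KO replicate 2 were 5.21%, beside 3.55%.

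The estimates for the nuclear-encoded genes were close to 0. Their median log2 fold change was -0.06, with 74 of 83 negative, beside a median of -0.001 with 50.3% negative over all genes tested. The median was -0.09 without WT replicate 2, -0.03 without WT replicate 4 and -0.02 without KO replicate 4. In these fits 79, 58 and 56 of the 83 were negative. Of the gene lists described below, 80.4% of assembly factors and 78.9% of tricarboxylic acid cycle genes were negative, beside 39% of cytosolic ribosome genes. Single values ran from -0.16 to 0.33, and for 81 of the 83 the 95% interval lay within 0.5 of 0 on the log2 scale, beside 60% of all genes tested. This was not particular to the subunit genes. The share was 100% for tricarboxylic acid cycle genes, 98.7% for mitochondrial ribosome genes and 92.7% for cytosolic ribosome genes. The part of expression level in these shares was not tested. The 13 mitochondrial-encoded genes had a median log2 fold change of -0.22 and were all negative, from -0.4 to -0.17, but 0 of their 95% intervals lay within 0.5 of 0. Without WT replicate 1, their median was -0.06 and 8 of the 13 were negative.

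**Figure D2:**
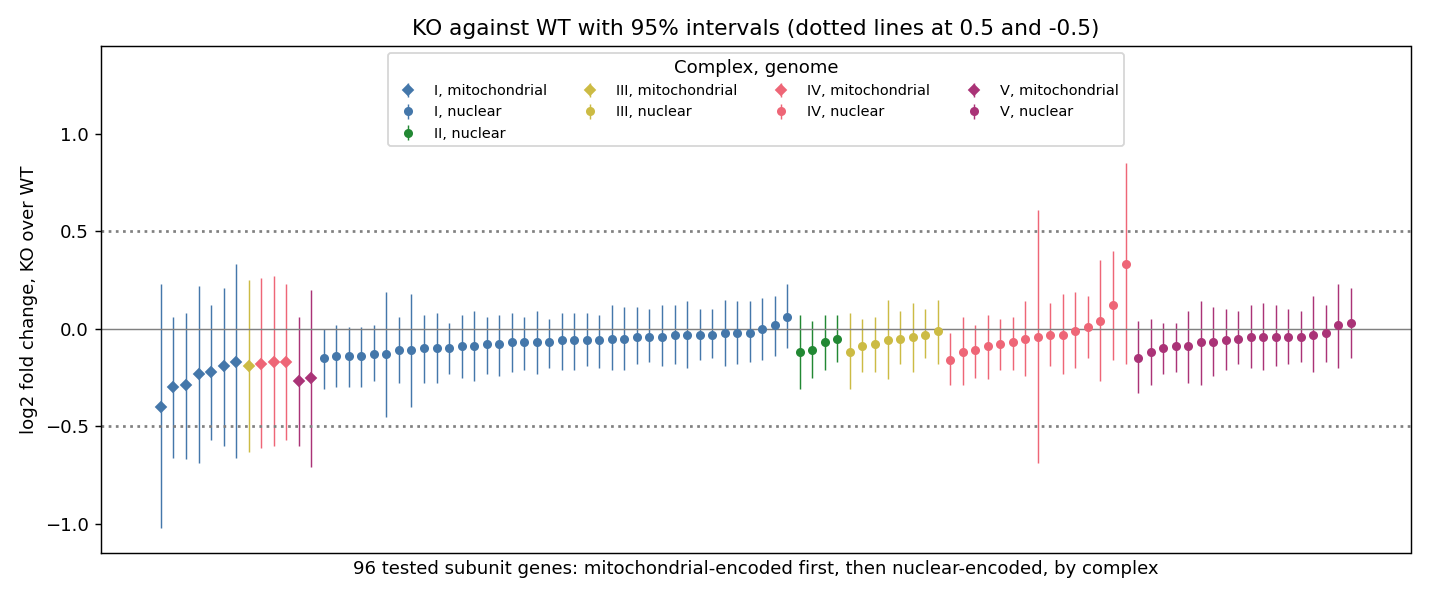
log2 fold change of KO over WT with its 95% interval (edgeR) for the 96 tested subunit genes, with diamonds for mitochondrial-encoded and circles for nuclear-encoded genes, coloured by complex. The intervals of all 13 mitochondrial-encoded genes cross 0 and reach beyond 0.5 below it, and those of most nuclear-encoded genes stay between the dotted lines.

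*mt-Co1*, the catalytic subunit of complex IV, was measured at 21053, 14810, 13022 and 12111 CPM in WT and at 15032, 13295 and 12145 CPM in KO. Its KO values lay within the range of WT, with a log2 fold change of -0.18 ± 0.191 (SE) and an adjusted p of 0.834 (edgeR). *mt-Co2* and *mt-Co3*, the other mitochondrial-encoded subunits of complex IV, had log2 fold changes of -0.17 each. For *mt-Cytb*, the cytochrome b of complex III, values were 7528, 5179, 4635 and 4262 CPM in WT and 5409, 4631 and 4139 CPM in KO. Its log2 fold change was -0.19 ± 0.195 (SE), with an adjusted p of 0.823 (edgeR).

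Of the ATP synthase genes, *mt-Atp8* was measured at 1971, 1394, 1361 and 1333 CPM in WT and at 1366, 1253 and 1152 CPM in KO, and 1 KO library stood above 2 WT libraries. Its log2 fold change was -0.27 ± 0.144 (SE), with an adjusted p of 0.631 (edgeR). *mt-Atp6* was measured at 8259, 5856, 4819 and 5344 CPM in WT and at 6327, 4413 and 4534 CPM in KO. In both genes WT replicate 1 stood above all other libraries.

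The 7 mitochondrial-encoded subunits of complex I had log2 fold changes from -0.4 (*mt-Nd6*) to -0.17 (*mt-Nd5*). *mt-Nd6* was measured at 30.1, 19.8, 12.5 and 25.8 CPM in WT and at 21.1, 15.8 and 13.3 CPM in KO, a spread wider than that of the other 12 genes. *mt-Nd3* was measured at 412.1, 288.2, 274.1 and 298.4 CPM in WT and at 352.1, 199.7 and 259.9 CPM in KO. The lowest of these, KO replicate 3, was also the library with the largest share of reads in the copy of the gene. *mt-Nd4l* had the lowest p of the mitochondrial-encoded genes, with a log2 fold change of -0.3 ± 0.159 (SE) and an adjusted p of 0.624 (edgeR). *mt-Nd1*, *mt-Nd2* and *mt-Nd4* had log2 fold changes of -0.22, -0.29 and -0.19.

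**Figure D3:**
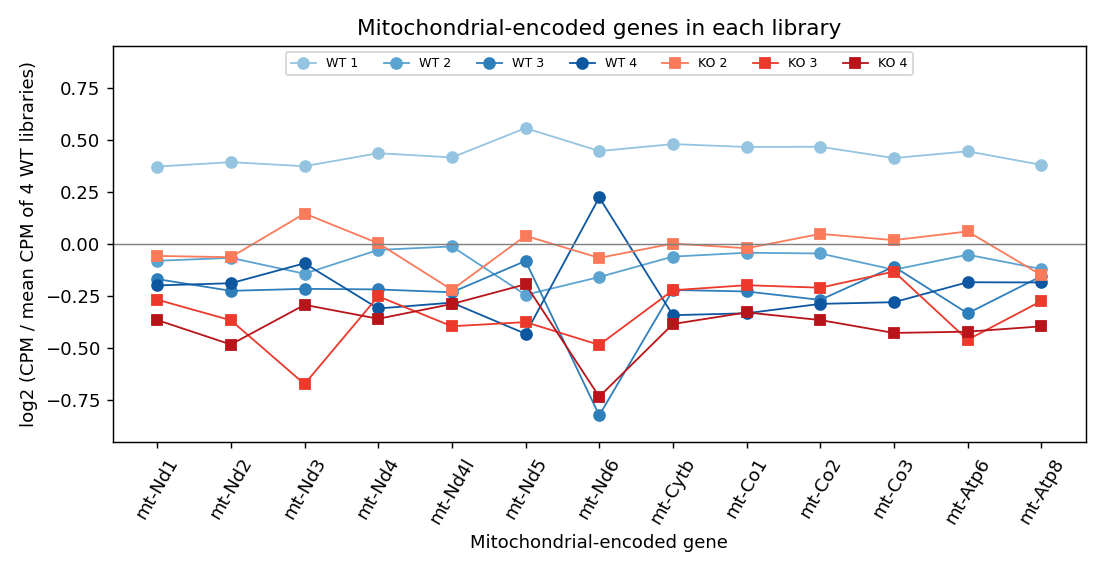
log2 of the CPM of each mitochondrial-encoded gene over its mean in the 4 WT libraries, with one line per library, WT in blue and KO in red. WT 1 lies above every other library for all 13 genes, and the other 6 libraries cross one another.

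The proportions of the mitochondrial-encoded genes among themselves were steadier than their sum. The share of *mt-Co1* among the reads of the 13 genes was 27% to 29% over the 7 libraries, and that of *mt-Cytb* was 9.51% to 10.2%. For 11 of the 13 genes the highest share was 1.05 to 1.28 times the lowest. The exceptions were *mt-Nd6*, from 0.0266% to 0.0577%, and *mt-Nd3*, from 0.436% to 0.666%. The mitochondrial ribosomal RNAs, which carry no protein sequence, took 0.0733%, 0.0552%, 0.056% and 0.0495% of reads in WT and 0.0791%, 0.0867% and 0.0576% in KO. Their highest library was KO replicate 3 and not WT replicate 1. These were mRNA libraries, and how well the ribosomal RNAs were captured was not tested.

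Salmon divides reads that match several transcripts between them, and the division differed among libraries. Of the reads of *mt-Nd3* and its copy, 28.4%, 26.1%, 33.5% and 25.3% were assigned to the copy in WT, and 24.7%, 48.6% and 25.2% in KO. For *mt-Atp6* these shares were 5.9%, 4.5%, 19.2% and 6.24% in WT, and 3.73%, 23% and 10.5% in KO. WT replicate 3 and KO replicate 3 were the highest of their groups for both genes and for *mt-Co2*, at 2.99% and 6.06%. For *mt-Co1* the share stayed between 7.36% and 9.7%. The oocyte marker sum was also highest in these libraries within their groups, at 553.3 and 716 CPM, and its part in the shares was not tested.

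With the reads of the copies added, *mt-Nd3* was 575.6, 390, 412 and 399.5 CPM in WT and 467.7, 388.1 and 347.2 CPM in KO. KO replicate 3 then lay beside the other libraries, and the log2 fold change was -0.15 ± 0.154 (SE) in place of -0.23. That of *mt-Atp6* was -0.2 in place of -0.25. The median over the 13 genes was -0.19 with the copies added.

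**Figure D4:**
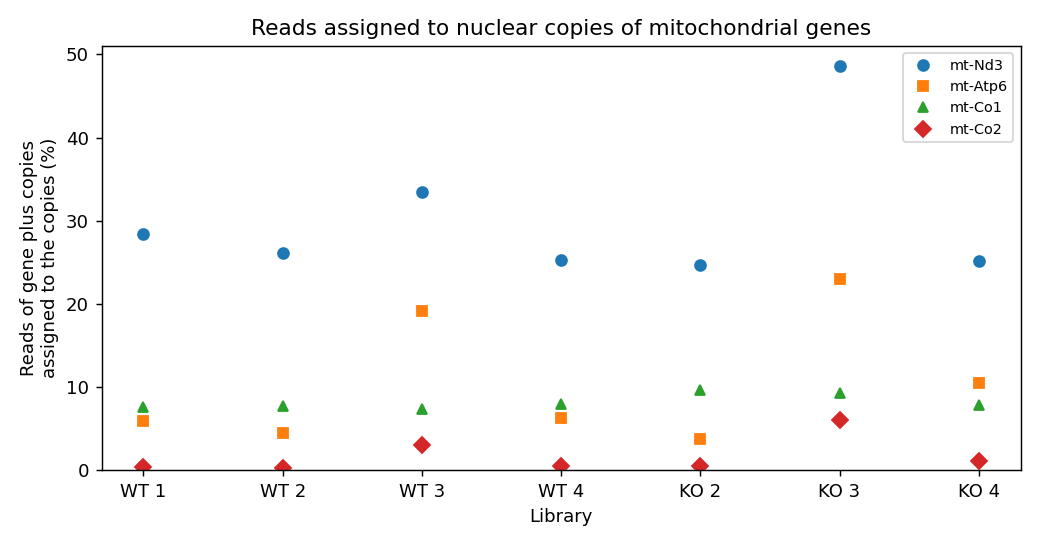
Percent of the reads of a mitochondrial-encoded gene plus its nuclear copies that were assigned to the copies, by library, for *mt-Nd3*, *mt-Atp6*, *mt-Co1* and *mt-Co2*. KO 3 is highest for *mt-Nd3* at 48.6% and for *mt-Atp6* at 23%, and WT 3 is the highest WT library for both.

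Levels between genes are compared as TPM, which divides reads by the effective length of the transcript. The median TPM in WT was 8227 for the mitochondrial-encoded genes, 207.3 for the tested nuclear-encoded genes and 8.73 for all genes tested, and 81 of the 83 nuclear-encoded genes lay above the last. *mt-Atp8* had the highest value, 42056 ± 6478 TPM (SD, n = 4), on an effective length of 50.1 to 54.7 bases out of 204, so that its TPM depends heavily on the assumed fragment length. *mt-Atp6*, *mt-Co3*, *mt-Co1* and *mt-Co2* followed at 18031 ± 3511, 18003 ± 3078, 16339 ± 3424 and 16231 ± 3378 TPM (SD, n = 4). The SD is among libraries, in which these genes were highest together in WT replicate 1, and does not test differences between genes. *mt-Nd6* was the lowest at 97.5 ± 29.9 TPM (SD, n = 4), below the median of the nuclear-encoded genes. The libraries were made with an mRNA kit, so such levels also depend on how well each RNA was captured, which was not tested.

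**Figure D5:**
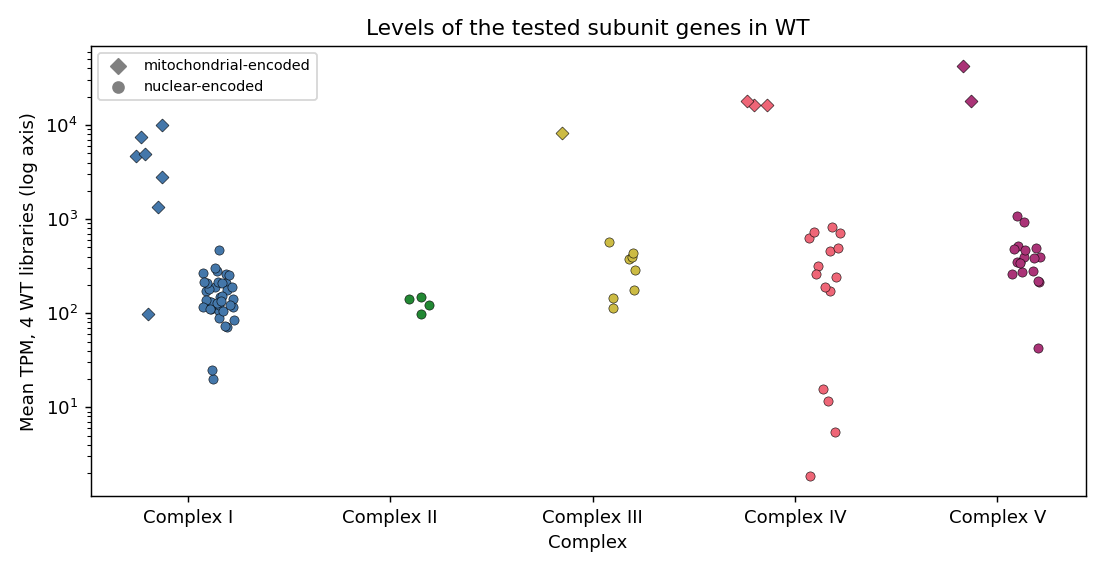
Mean TPM in the 4 WT libraries (log axis) of the 96 tested subunit genes by complex, with diamonds for mitochondrial-encoded and circles for nuclear-encoded genes. All mitochondrial-encoded genes but *mt-Nd6*, at 97.5 TPM, lie above every nuclear-encoded gene, of which the highest is *Atp5f1b* at 1073 TPM.

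Among the nuclear-encoded genes, the subunits of complex I had a median of 139.3 TPM in WT, those of complex II 131.8, complex III 333.7, complex IV 261.9 and complex V 368.5. The highest in complex V was *Atp5f1b*, the catalytic beta subunit, at 1073 ± 81.8 TPM (SD, n = 4), and the lowest was *Atp5mc2*, at 42.9 ± 3.59 TPM. The direction of *Atp5f1b* depended on transcript length, with a log2 fold change of -0.04 in reads and 0.04 with effective length offsets. *Atp5mc1*, *Atp5mc2* and *Atp5mc3* encode the same membrane ring protein, and *Atp5mc3* held, in WT, 78% ± 0.715 (SD, n = 4) and, in KO, 78.3% ± 0.763 (SD, n = 3) of their summed TPM. The value of *Atp5mc2* is uncertain, since 87.5% to 91% of the reads of it and its copies were assigned to Gm70834, a lncRNA on chromosome 7 with 100% identity over 649 bases. With these reads added, its WT mean was 146 CPM in place of 15.6, and its log2 fold change was -0.01 in place of -0.15. *Atp5mc1* also shared reads, with 20.7% to 23.2% assigned to a copy. *Atp5mc3* was at 335 CPM in WT. Its share of 78%, and the place of *Atp5mc2* as the lowest, therefore leave out the copies and are uncertain.

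Other nuclear-encoded genes shared reads with copies too. For *Ndufb4*, a complex I subunit, 70.6% to 75.8% of the reads were assigned to the pseudogene Ndufb4c, and for *Ndufa12*, another, 36.6% to 39.6% to Ndufa12-ps. *Cox7a2l*, which is known for a role in joining complexes into supercomplexes, had 0.203% of its reads in the copy Gm6969 in WT replicate 1 and 2.68% to 9.63% in the other libraries. Adding the copies changed no call.

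Complex IV has subunits that come in tissue-specific pairs, and in each pair the widely expressed form made up nearly all of the TPM in both groups. *Cox4i1* held, in WT, 98.4% ± 0.0972 (SD, n = 4) and, in KO, 98.2% ± 0.172 (SD, n = 3) of the *Cox4i1* and *Cox4i2* sum. *Cox4i2*, known as a form of lung and of low oxygen, was measured at 4.32, 3.91, 4.9 and 4.1 CPM in WT and at 4.26, 5.21 and 4.57 CPM in KO, with overlapping groups. *Cox6a1* was at 825.6 ± 39.7 TPM (SD, n = 4) and the heart and muscle form *Cox6a2* at 1.87 ± 0.344 TPM, the lowest tested subunit. *Cox6a2* had the most positive log2 fold change of all subunit genes, 0.33 ± 0.226 (SE), with an adjusted p of 0.72 (edgeR), on 28 to 46 reads per library.

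The heart and muscle form *Cox7a1* had a WT mean of 5.52 ± 1.91 TPM (SD, n = 4) and a KO mean of 5.43 ± 1.04 TPM (SD, n = 3), beside 261.9 ± 9.67 and 254.9 ± 10.9 TPM for *Cox7a2*. *Cox6b2*, known as a testis form, was at 15.7 ± 1.29 TPM in WT and *Cox6b1* at 453.1 ± 60.4 TPM (SD, n = 4). *Cox7b* was at 171.1 ± 18.7 TPM in WT, while *Cox7b2* was at 0 reads in every library. *Cox8b* had 2 to 6 reads and *Cox8c* 0 to 6 reads per library, too few to be tested, beside 6598 to 9850 reads for *Cox8a*. The other subunit genes not tested were *Ndufb11b*, *Cox5b-ps* and a second gene identifier with the symbol *Atp5po*.

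*Cox8a* was the subunit gene with the lowest p. It was measured at 158.2, 144.4, 154 and 158.3 CPM in WT and at 144.5, 137.5 and 131.1 CPM in KO, and 1 KO library stood just above the lowest WT library. The log2 fold change was -0.16 ± 0.0593 (SE), with an unadjusted p of 0.0255 and an adjusted p of 0.471 (edgeR).

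*Ndufa4* was the highest nuclear-encoded gene named for complex I, at 465.6 ± 18.5 TPM (SD, n = 4) in WT, although its protein is known as a subunit of complex IV. Its paralog *Ndufa4l2*, known to be induced by low oxygen, was the lowest at 20.1 ± 3.14 TPM. *Ndufa4l2* was measured at 8.92, 6.44, 9.1 and 8.91 CPM in WT and at 6.97, 8.54 and 7.4 CPM in KO, and its log2 fold change was -0.13 ± 0.14 (SE). In complex II, *Sdhb*, an iron-sulphur subunit, was highest at 149.4 ± 18.6 TPM and *Sdhc*, a membrane anchor, lowest at 97.6 ± 11.6 TPM (SD, n = 4). In complex III, *Uqcrh* was highest at 569.1 ± 18 TPM and *Uqcrfs1*, the Rieske iron-sulphur protein, lowest at 112.8 ± 11 TPM (SD, n = 4).

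Proteins of 5 subunits were blotted in granulosa cells in the study, and their messages were measured here in the stromal tissue. *Ndufb8* of complex I was at 105.5, 89.1, 90.7 and 90.7 CPM in WT and 86.7, 86.1 and 82.4 CPM in KO, without overlap. Its log2 fold change was -0.14 ± 0.0693 (SE), with an adjusted p of 0.583 (edgeR). It was -0.08 without WT replicate 1 and with the replicate number as a block. *Sdhb* of complex II was at 94.3, 87.8, 92.9 and 112.4 CPM in WT and 88.5, 93.3 and 85.9 CPM in KO, with overlap. *Uqcrc2* of complex III was at 157.5, 151.9, 160.9 and 170.8 CPM in WT and 144.7, 153.8 and 156.5 CPM in KO, with overlap. *Atp5f1a*, the alpha subunit of the ATP synthase, was at 724, 688.1, 754.7 and 787.7 CPM in WT and 693.6, 703.8 and 729.8 CPM in KO, with overlap. With *mt-Co1* as given above, the log2 fold changes of the 5 ran from -0.18 to -0.06 and their adjusted p-values from 0.583 to 0.847 (edgeR).

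Nuclear subunit promoters are known as targets of NRF1, of ETS factors such as GABPA, of YY1 and of estrogen-related receptors. RefSeq promoters (GRCm38.p6, 250 bases before to 50 after the start) were matched for 68 nuclear-encoded genes. On either strand, GCATGCG (NRF1) was found in 14.7% of these and in 3.64% of all 27025 promoters, CCGGAAG (ETS) in 22.1% and 9.12%, AAGATGG (YY1) in 14.7% and 6.48%, and AAGGTCA (estrogen-related receptors) in 11.8% and 4.66%. Median C and G content was 57.3% in the matched genes and 52.7% in all promoters. The 250 bases before the start of *Cox6a1*, the highest nuclear-encoded gene of complex IV, are shown as an example (chr5:115348959-115349208, minus strand), with NRF1 and ETS letters in capitals.
Cox6a1: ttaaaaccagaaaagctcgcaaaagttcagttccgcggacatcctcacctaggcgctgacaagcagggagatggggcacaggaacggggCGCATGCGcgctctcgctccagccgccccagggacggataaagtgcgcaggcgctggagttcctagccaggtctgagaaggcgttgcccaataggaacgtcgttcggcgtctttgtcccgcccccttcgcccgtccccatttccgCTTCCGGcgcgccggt

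Genes that work with the chain were described by the same counts, and 0 were DEGs in any of the 9 lists, beside 0.0104% of all genes tested. Of 46 tested assembly factors, which help to build the complexes, 2 (4.35%) had an unadjusted p under 0.05, both lower in KO, beside 5.1% of all genes, and the median log2 fold change was -0.05. They were *Tmem70* and *Atpaf2*, both ATP synthase assembly factors, with log2 fold changes of -0.19 ± 0.06 and -0.17 ± 0.0592 (SE) and adjusted p-values of 0.386 and 0.42 (edgeR). *Tmem70* was at 28.9, 26.8, 27.2 and 27.6 CPM in WT and 24, 25.6 and 23.1 CPM in KO, and *Atpaf2* also had no overlap between groups, as was the case in this direction for 5.12% of all genes. Of 21 tested electron carriers and other parts of the chain, 1 (4.76%) was lower at an unadjusted p under 0.05, beside 5.1% of all genes. This was *Etfdh*, which passes electrons from fatty acid oxidation to ubiquinone, with a log2 fold change of -0.22 ± 0.089 (SE).

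Of 78 mitochondrial ribosome genes, 3 (3.85%) were lower and 1 (1.28%) higher at an unadjusted p under 0.05, beside 5.1% and 3.84% of all genes, with a median of -0.04. The lowest p were those of *Mrpl50*, with a log2 fold change of -0.25 ± 0.0656 (SE) and an adjusted p of 0.314, and *Mrps11*, with 0.15 ± 0.0566 (SE) and an adjusted p of 0.47 (edgeR). None of the 31 mitochondrial gene expression factors, 12 mitochondrial DNA replication genes and 19 tricarboxylic acid cycle genes passed this level in either direction, with medians of -0.04, 0.02 and -0.06. Of 19 biogenesis regulators, 1 (5.26%) was higher, beside 3.84% of all genes. This was *Sirt1*, a deacetylase, with a log2 fold change of 0.15 ± 0.0592 (SE) and an adjusted p of 0.514 (edgeR). Of 82 tested cytosolic ribosome genes, 0 passed and the median was 0.01.

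Of 8 genes of mitochondrial steroid synthesis, 1 (12.5%) was lower at an unadjusted p under 0.05, beside 5.1% of all genes. This was *Star*, which carries cholesterol into mitochondria. It was measured at 1036, 1292, 988 and 1916 CPM in WT and at 974.5, 924.3 and 849.1 CPM in KO, without overlap. In this direction 5.12% of all genes had no overlap. The log2 fold change of *Star* was -0.51 ± 0.213 (SE), with an unadjusted p of 0.0395 and an adjusted p of 0.529 (edgeR). Without WT replicate 4, the highest library, the log2 fold change was -0.26. *Star* is also one of the theca cell markers.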

How the data were processed

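RNA-seq libraries of ovarian stromal tissue (4 WT, 3 KO) were grouped by the sample labels. The authors made stranded mRNA libraries (paired-end, 100 bp reads) and quantified them with Salmon on a GRCm39 transcriptome, and they deposited expected counts (the estimated number of reads per transcript), TPM scaled by effective length, and lengths. Transcripts were matched to GENCODE M39, a later release, for 137570 of 139225 (98.8%). Expected counts were summed per gene and rounded. KO was compared with WT in edgeR 4.0.16 (R 4.3.3; TMM, filterByExpr, quasi-likelihood test, two-sided, Benjamini–Hochberg over 19233 genes). The alternatives included DESeq2 1.42.0, the study's own tool, and voom from limma 3.58.1, besides other scalings, filters, length offsets, a replicate block, added copies and leaving out each library. The code was tested on simulated data.

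Copies were other transcripts with at least 95% identity over at least 200 bases and 50% of their length in BLAST 2.17.0. Totals were 47.4 M to 63.4 M reads per library. Members and gene lists were chosen with earlier results of these data known. Genes named were the 13 mitochondrial-encoded, paralogous subunits, those with an unadjusted p under 0.05, the highest and lowest TPM of each complex, 5 blotted subunits, the 2 lowest p under 0.05 of each list, and *Pgr*. *Ndufb4*, *Ndufa12*, *Atp5mc1* and *Atp5mc3* were named for their copies or paralogs after their values were seen.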

Additional observations from a re-analysis of the deposited data

Results flagged for a closer look

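In the 4 WT libraries, 46 values were examined for a library far from the others by Dixon's test at the 95% level, which flags about 1 group in 20 by chance, and 4 stood apart. *mt-Atp8* was highest in WT replicate 1 at 1971 CPM. *Ndufb8* was highest in the same library at 105.5 CPM. *Cox6b1* was highest in WT replicate 4 at 130.3 CPM. *Ndufa4l2* was lowest in WT replicate 2 at 6.44 CPM. The KO group of 3 was not examined in this way.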

How the results depend on the processing

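No subunit gene was called under any of 17 alternatives. The count lower in KO at an unadjusted p under 0.05 was 0 with the replicate block and 0 to 6 without single libraries, and the higher count was 0 throughout. Without single libraries, the median log2 fold change ran from -0.32 to -0.06 for mitochondrial-encoded and from -0.09 to -0.02 for nuclear-encoded genes. The difference in read share, KO minus WT, ran from -0.883 to 0.0182 percentage points for the former (-1.71 as a share of TPM) and from -0.0296 to -0.000257 for the latter. The labels name no pairing of the libraries. Correlations of deviations between same-numbered libraries were 0.02, 0.16 and 0.13, and those between other libraries ran from -0.19 to 0.19. Not every library correlated best with its own number, but so few values cannot decide whether the numbers pair the libraries. With the replicate block the mitochondrial-encoded median was -0.08 and the nuclear-encoded median -0.05, and log2 fold changes turned positive for mt-Nd5 (0.08), mt-Cytb (0.01), mt-Co1 (0.02), mt-Co2 (0.03) and Cox7a2l (0.05). Cox7a2l also turned positive with mitochondrial-encoded genes left out of the normalization (0.0008), without a filter (0.0011) and with at least 10 counts in every library (0.0014), and Atp5f1b with effective length offsets (0.04). Without single libraries, ranges that crossed 0 were -0.28 to 0.09 for mt-Nd5, -0.3 to 0.02 for mt-Cytb, -0.26 to 0.03 for mt-Co1, -0.29 to 0.04 for mt-Co2, -0.27 to 0.01 for mt-Co3, -0.06 to 0.03 for Cox4i1, -0.02 to 0.15 for Cox6b2, -0.2 to 0.18 for Cox7a1, -0.07 to 0.06 for Cox7a2l, -0.09 to 0.03 for Cox7b, -0.09 to 0.03 for Uqcrh and -0.06 to 0.01 for Atp5f1b. The first 5 turned positive without WT replicate 1, and the cause of these turns was not tested. Pgr, not called by edgeR, was called by DESeq2, without a filter, with at least 10 counts in every library, and without WT replicate 2 or 4. Adding the copies to every subunit gene, and to the mitochondrial-encoded genes alone for results other than the median and share, was chosen after seeing the data. Over all genes, edgeR called 2, DESeq2 144, edgeR without a filter 36, with at least 10 counts in every library 6, and with the replicate block 26. Depth limits the genes with few reads, such as Cox6a2 at 28 to 46 reads per library.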
